A study of Mus musculus with 11 samples.

Results

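The plakins are a family of giant cytolinkers, and the 6 members described here were Eppk1, Plec, Dst, Macf1, Ppl and Evpl. They were chosen by gene name and are 6 of the 19170 genes with values in the table, which lists 55414 genes. The choice was made with Eppk1 already known to be lower in the DT-treated mice, so the DT against PBS values of the members are given as a description, with no p-value. Where it is said whether the fit across all genes called a member, or an interval is given, this describes the size of a value and supports nothing. Desmoplakin (Dsp), the remaining epithelial plakin, is given beside them and is no member. The question was whether the lower level of Eppk1 was shared by other plakins with very long transcripts.

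Bulk RNA sequencing was performed on the gingival epithelium of 8-week-old Langerin-DTR mice, in which the promoter of langerin (Cd207) drives the diphtheria toxin receptor, so that toxin removes the langerin-expressing cells. All 11 mice carried this genotype. They received 3 injections, at 17, 24 and 31 days of age, of PBS (5 mice) or of diphtheria toxin (DT, 6 mice), and none of the samples is from a mouse without the receptor, so an effect of the toxin itself and of the depletion cannot be told apart. The tissue was taken weeks after the last injection, so the libraries do not show the tissue at the time of depletion. Between 17509328 and 24325513 reads were assigned to genes in each mouse, and every member had at least 1334 reads in each. Keratinocyte markers were abundant, with a summed level of 1782502 to 1980445 normalized counts in the PBS mice and 1829373 to 2039358 in the DT mice. The normalized count, the unit used throughout, is the number of reads of a gene divided by the size factor of the mouse.

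Plakins tie intermediate filaments, microtubules and actin to each other and to the junctions that hold an epithelium together. Plectin (Plec) and dystonin (Dst, whose epithelial form is the bullous pemphigoid antigen BPAG1) anchor keratin filaments at the hemidesmosome, the junction of basal cells with the basement membrane. Macf1 crosslinks microtubules and actin. Envoplakin (Evpl) and periplakin (Ppl) form a scaffold for the cornified envelope of upper layers, and desmoplakin attaches keratin to the desmosome. Epiplakin (Eppk1) is unusual in the family in that it consists almost wholly of plakin repeat domains, binds keratins, and has been linked to keratin reorganization under stress and in wound edges.

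Because epiplakin is built from repeats, its transcript contains stretches that occur more than once, and sequence is shown for this reason. In the longest annotated transcript (12332 bases in GENCODE release M21, matched by symbol only, since the identifier in the table belongs to a later gene model), 22.7% of all 88-base windows occurred more than once within the gene, with up to 3 copies. The window is the length of a read of 100 cycles, as the labels give it, after 12 bases are trimmed. The study's reporting summary gives 75 cycles, and with the resulting 63-base windows the share was 24.3%. The longest exact repeat ran over 1029 bases, and 3218 bases, or 26.1% of the transcript, lay in such windows. In Plec, Dst, Macf1, Ppl, Evpl and Dsp no 88-base window was repeated within the gene, and at 63 bases 4 of the 15393 windows of Plec were repeated and none of those of the other genes. The copies of Eppk1 follow each other at a period of 1545 bases. A stretch of 121 bases at the edge of the repeated region is given from each of the 3 copies, which start at bases 8147, 9692 and 11237 of the transcript, 5′ to 3′, with capitals at the 11 positions where the copies do not all carry the same base.
copy 1: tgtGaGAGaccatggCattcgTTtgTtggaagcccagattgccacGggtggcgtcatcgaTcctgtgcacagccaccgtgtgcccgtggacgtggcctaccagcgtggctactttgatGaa
copy 2: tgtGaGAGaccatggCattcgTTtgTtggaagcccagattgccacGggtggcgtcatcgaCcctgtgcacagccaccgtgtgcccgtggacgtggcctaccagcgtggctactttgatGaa
copy 3: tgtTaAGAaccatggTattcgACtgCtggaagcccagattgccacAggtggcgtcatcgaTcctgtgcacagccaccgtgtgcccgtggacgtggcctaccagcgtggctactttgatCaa
Copies 1 and 2 differed at 1 of these positions, copies 1 and 3 at 10, and copies 2 and 3 at 11. A read that falls wholly inside a repeated stretch matches more than 1 place, and how the counting treated such reads is not given in the sources used here, so the level of Eppk1 is less certain than that of the other plakins. Of its 88-base windows 592, or 4.83%, were shared with the overlapping gene model BC024139, which had between 0 and 5.04 normalized counts in the 11 mice. In Dst 131 of the 88-base windows, 0.56%, were shared with another gene model, and in the other plakins 0. The part of these shared stretches in the values given here was not tested.

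**Figure D1:**
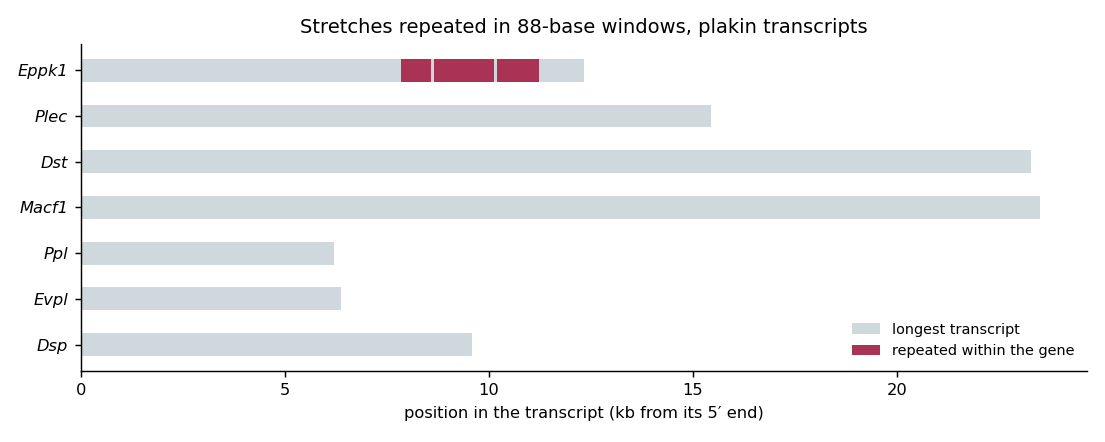
Each bar is the longest annotated transcript of a plakin, to scale in kb from its 5′ end, and the red blocks are the stretches made of 88-base windows that occur more than once within the same gene. Blocks are seen in Eppk1, between bases 7842 and 11239, and in none of the other 6 plakins.

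Compared per length, Eppk1 and Macf1 were the least abundant plakins of the gingival epithelium. A level per length assumes reads from the whole transcript. The labels name a stranded mRNA kit, but the study's methods also say that the reads were processed after a guide for a 3′ end kit, and with reads from the 3′ end alone these levels would have no meaning. The level per kb of the longest transcript in the PBS mice was 238 ± 44.7 normalized counts per kb (SD, n = 5) for Eppk1, 271 ± 31.7 for Macf1, 560 ± 116 for Dst and 609 ± 125 for Plec. The cornified envelope pair stood far above these, at 5032 ± 762 normalized counts per kb for Evpl and 6290 ± 861 for Ppl, and Dsp reached 20624 ± 3162. Eppk1 was below Macf1 within each of the 11 mice when the whole length of its GENCODE M21 model was used. That model was matched by symbol only. Whether the later gene model that was counted has this length was not tested, so the levels of Eppk1 per kb are uncertain. Without windows that are repeated within the gene or shared with another gene model, 8.87 kb of 88-base windows remain for Eppk1. If only such windows gave reads, its level in PBS mice would be 330 ± 62.2 normalized counts per kb against 272 ± 31.8 for Macf1. Eppk1 would then be below Macf1 in 0 of 5 PBS mice and 6 of 6 DT mice. These counts thus do not settle the order of the pair in the PBS mice. Evpl was below Ppl within each of the 11 mice with overlapping ranges. Dst and Plec could not be ordered, since Dst was the lower of the pair in 8 of 11 mice. The level of Dst also rests on which form is expressed, which counts per gene do not show. Its protein-coding transcripts in GENCODE M21 include forms of 8.79 and 8.96 kb, and over 8.96 kb the level would be 1454 ± 301, above Plec. The ranges did not overlap between Macf1 and Dst, between Plec and Evpl, or between Ppl and Dsp.

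Eppk1 was the only member that the fit across all genes called. Its normalized counts were 3163, 2658, 2567, 3795 and 2474 in PBS mice 1 to 5, and in the DT mice they ran from 1432 over a median of 1670 to 2035. All 6 DT mice lay below the lowest PBS mouse, so the groups did not overlap. The mean was 2931 ± 551 (SD, n = 5) in PBS mice and 1727 ± 240 (SD, n = 6) in DT mice, a log2 fold change of -0.76 with a standard error of 0.11 and a 95% interval of -0.99 to -0.52 on the log2(normalized count + 1) scale. In bulk tissue, fewer cells expressing a gene and less RNA per cell cannot be told apart. With limma and an adjusted p threshold of 0.1, 47 of 19170 genes were lower after DT, a background of 0.245%, and 60 were higher, a background of 0.313%. Of the 13477 genes that averaged 10 or more normalized counts over the mice, 119 were lower in DT mice without overlap of the groups, a background of 0.883%, and 166 were higher, a background of 1.23%. Eppk1 was chosen on this same contrast, so nothing is read from its call against these shares. It was called in all of the 21 other settings tried, in which its log2 fold change lay between -0.81 and -0.58.

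The large cytolinkers Plec, Dst and Macf1 were not called. Plec, the neighbour of Eppk1 on chromosome 15, had 10292, 8775, 8098, 12346 and 7578 normalized counts in PBS mice 1 to 5 and 7819 to 9332 in the DT mice, with a median of 8736. The DT mice thus lay wholly inside the range of the PBS mice. The log2 fold change of Plec was -0.10 with a standard error of 0.10 and a 95% interval of -0.31 to 0.11, and it turned to 0.08 once transcript length and GC content were corrected for and to 0.09 without PBS mice 1 and 4. Dst had 15360, 10977, 11663, 16496 and 10664 normalized counts in PBS mice 1 to 5, and 11014 to 15509 in DT mice with a median of 13521. Here too the groups overlapped widely, with PBS mice 1 and 4 high and the other 3 PBS mice below the DT median. The log2 fold change of Dst was 0.08 with a standard error of 0.12 and a 95% interval of -0.16 to 0.33, and it was -0.01 after quantile normalization.

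Macf1 came closest to Eppk1 in direction. It had 6793, 5743, 5547, 7353 and 6400 normalized counts in PBS mice 1 to 5, and 4706 to 6002 in DT mice with a median of 5514. Of the DT mice, 3 lay below every PBS mouse and the other 3 inside the PBS range, while all 6 were below the PBS mean. The log2 fold change was -0.24 with a standard error of 0.08 and a 95% interval of -0.41 to -0.08. Macf1 was not called across all genes in any of the 22 fits, and its log2 fold change was -0.037 after the correction for length and GC content.

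The plakins of the cornified envelope and of the desmosome overlapped between the groups. Evpl had 34191, 32505, 24958, 38213 and 30756 normalized counts in PBS mice 1 to 5, against 31426 to 37343 in DT mice with a median of 33157. Ppl had 40192, 39296, 30423, 45116 and 40491 in PBS mice 1 to 5, against 38141 to 47306 in DT mice with a median of 39383. In both genes PBS mouse 3 was the lowest of all 11 mice. The log2 fold change was 0.08 with a standard error of 0.09 and a 95% interval of -0.11 to 0.27 for Evpl, and 0.09 with a standard error of 0.09 and a 95% interval of -0.11 to 0.29 for Ppl, and that of Evpl was -0.01 without PBS mouse 3. Dsp had 213093, 180629, 169913, 243790 and 181719 normalized counts in PBS mice 1 to 5 and 178309 to 215311 in DT mice with a median of 205766, a log2 fold change of 0.05 with a standard error of 0.11.

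**Figure D2:**
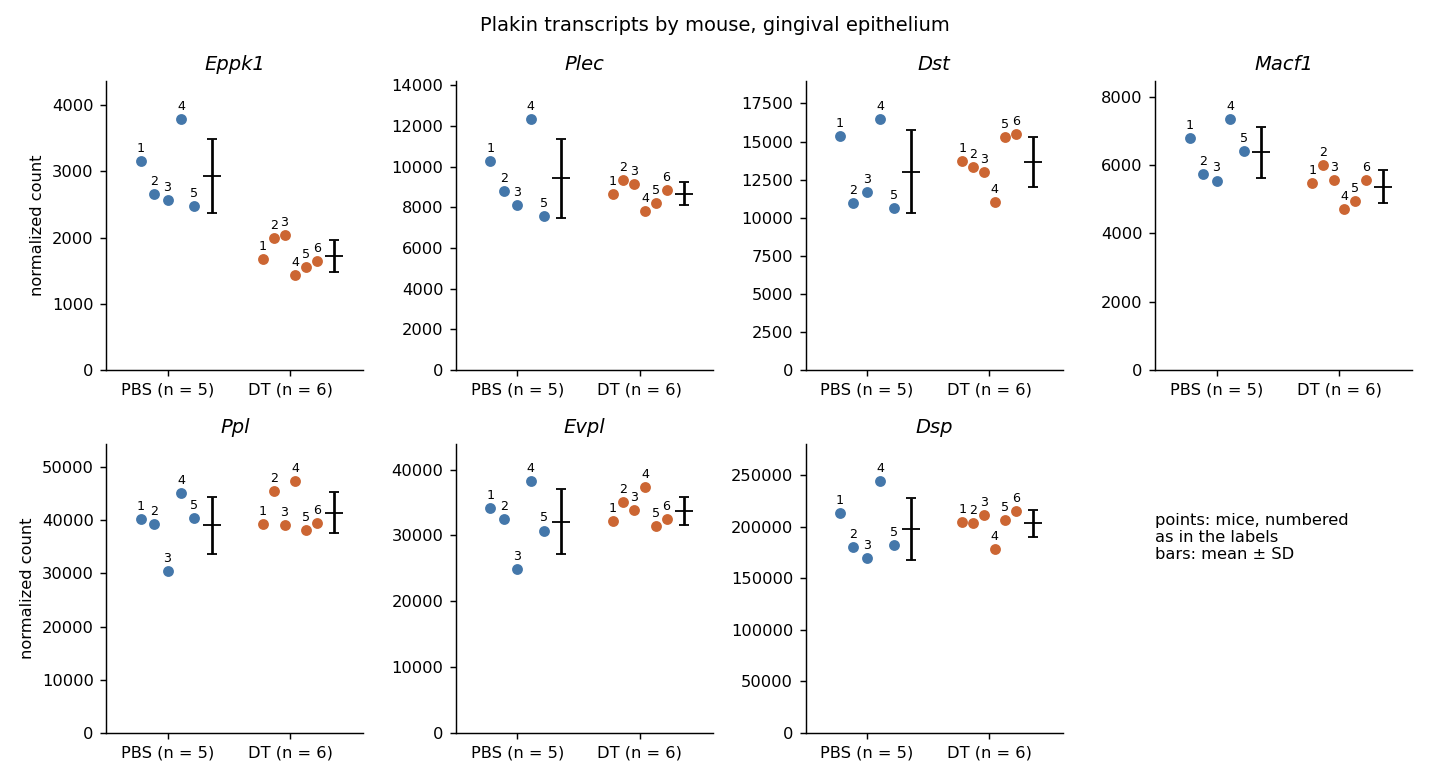
Normalized counts of the 6 members and of Dsp in each mouse, with the y axis starting at 0, 1 point per mouse numbered as in the labels, and the group mean ± SD beside the points. Eppk1 is the only panel in which the 6 DT mice, at 1432 to 2035, lie below all 5 PBS mice, at 2474 to 3795.

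Taken as a ratio in each mouse, Eppk1 was lower relative to every other plakin in the DT mice than in the PBS mice. The log2 ratio of Eppk1 to its neighbour Plec was nearly constant among the PBS mice, at -1.70, -1.72, -1.66, -1.70 and -1.61 in mice 1 to 5 (mean -1.68 ± 0.04, SD, n = 5), although both genes taken alone had a coefficient of variation of 18.8% and 20.5% there. In the DT mice this ratio lay between -2.45 and -2.16 (mean -2.33 ± 0.11, SD, n = 6), so the groups were 0.44 apart at their nearest mice and their means differed by -0.66. The ratio to Dst went from -2.15 ± 0.09 in PBS mice to -2.98 ± 0.25 in DT mice. The ratio to Macf1, which shared part of the direction, was -1.13 ± 0.15 in PBS mice and -1.64 ± 0.11 in DT mice, the least of the differences at -0.51. The ratios to Ppl, Evpl and Dsp differed by -0.85, -0.84 and -0.81. The groups overlapped in none of these 6 ratios. All of them hold the same Eppk1 values and are not separate observations.

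**Figure D3:**
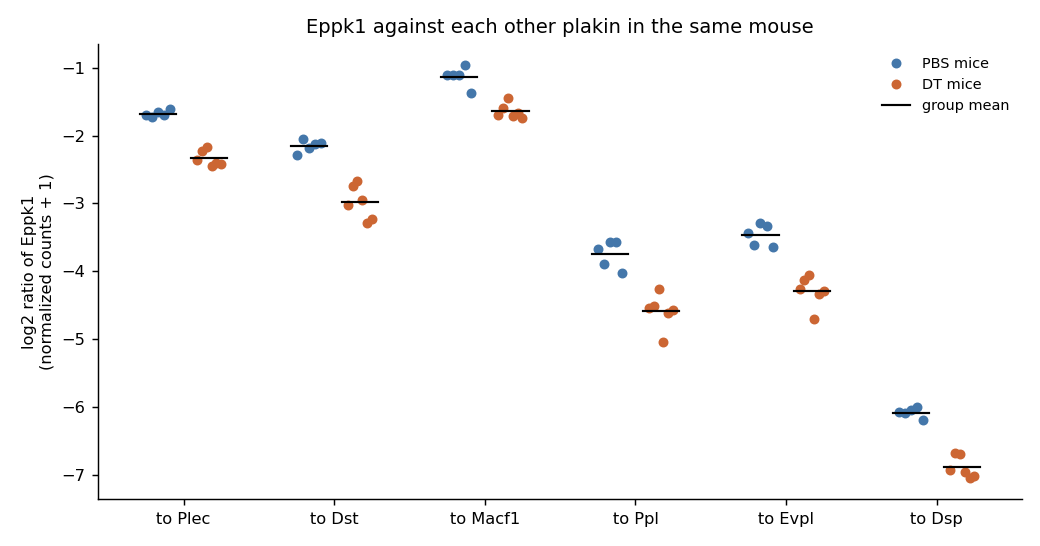
The log2 ratio of the normalized counts (plus 1) of Eppk1 to each other plakin in the same mouse, with points for mice, blue for PBS (n = 5) and orange for DT (n = 6), and lines for group means. In each of the 6 ratios the DT mice lie below the PBS mice, by -0.51 for Macf1 to -0.85 for Ppl between the means.

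The other genes with long transcripts were then compared, since the plakin transcripts range from 6.22 kb for Ppl to 23.5 kb for Macf1. Among genes averaging 10 or more normalized counts, members left out, the median log2 fold change was 0.06 for 720 genes with a longest transcript under 1 kb, -0.01 for 3108 genes of 4 to 6 kb, -0.06 for 417 genes of 8 to 10 kb, -0.17 for 106 genes of 12 to 16 kb and -0.26 for 31 genes of at least 16 kb, against 0.00 over all 13477 genes. Of the 1848 genes of at least 6 kb, limma called 25 lower and 0 higher after DT, and of the 11613 genes under 6 kb it called 15 lower and 56 higher. Of the 1848 genes of at least 6 kb, 10 had a log2 fold change below that of Eppk1. They were 8 of the 1122 genes of 6 to 8 kb, 1 of the 417 of 8 to 10 kb and 1 of the 31 of at least 16 kb, with lowest values of -0.90, -0.96 and -0.99, and 0 of the genes of 10 to 16 kb. Among the 106 other genes of 12 to 16 kb the lowest had -0.65, and Eppk1 was 0.58 below their median. Plec, in the same range of length, lay 0.07 above that median with 71 of the 106 genes below it. The range used for Eppk1 is that of its GENCODE M21 model, matched by symbol only. Whether the later gene model that was counted has this length was not tested, so its place among these genes is uncertain. Macf1 was 0.02 above the median of the 31 genes of at least 16 kb, with 20 of them below it, and Dst was 0.34 above it, with 29 of them below it. Placed by its forms of 8.79 and 8.96 kb instead, Dst was 0.14 above the median of 417 genes of 8 to 10 kb, with 372 of them below it, and whether it is a very long transcript in this tissue was not tested. Ppl and Evpl, at 6 to 8 kb, lay 0.13 and 0.12 above the median of 1122 genes of that length, and Dsp 0.11 above the median of 416.

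**Figure D4:**
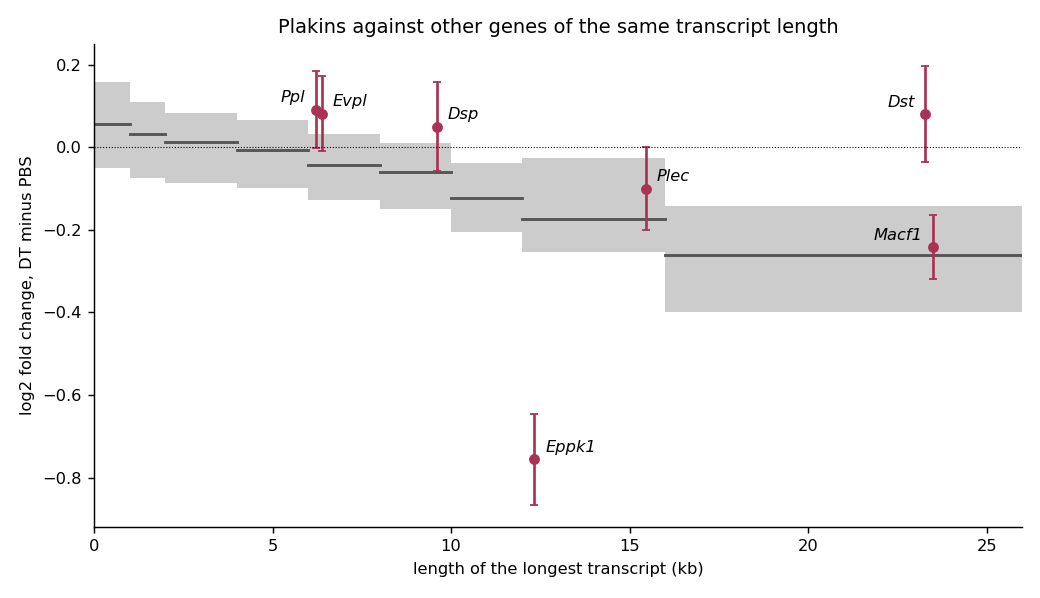
Log2 fold change (DT minus PBS) against the length of the longest annotated transcript in kb, with grey boxes for the middle 50% of genes and dark lines for the median of genes in each length range, and red points with standard errors for the plakins, each at its longest annotated transcript. The medians run from 0.06 below 1 kb to -0.26 from 16 kb on (drawn to 26 kb), and Eppk1, at -0.76, lies far below the box of its length while Dst, at 0.08, lies above its own.

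With transcript length and GC content corrected for in each mouse, the log2 fold change of Eppk1 was -0.62 with a standard error of 0.08, Eppk1 was still called and the groups still did not overlap. After this correction the values of the other members were 0.08 for Plec, 0.28 for Dst, -0.037 for Macf1, 0.15 for Ppl and 0.16 for Evpl, with none called. Across all genes the same correction gave 140 genes higher and 44 lower, against 60 and 47 without it. The correction uses lengths from GENCODE M21, for Eppk1 that of the model matched by symbol only. For Dst it uses the longest form, of 23.3 kb, so the value of 0.28 rests on that length. A correction of Dst at its forms of 8.79 or 8.96 kb was not tested. What in the tissue or the libraries gives the dependence on length was not tested.

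A long transcript score, which contains no member, described the mice one by one. The score is the median over 61 other genes with very long coding parts of the log2 deviation from the gene's mean over all mice. It was 0.20, -0.02, -0.04, 0.34 and 0.12 in PBS mice 1 to 5, and -0.07, -0.01, -0.08, -0.26, -0.14 and -0.06 in DT mice 1 to 6. PBS mice 1 and 4 were the highest and DT mice 4 and 5 the lowest, and the groups overlapped. The mean was 0.12 ± 0.16 (SD, n = 5) in PBS mice and -0.10 ± 0.09 (SD, n = 6) in DT mice, a difference of -0.23 (two-sided exact permutation test, p = 0.00649, where the smallest p that the splits of 11 mice allow is 0.00216). The genes of the score were listed with earlier results of these data known, so this p is no independent evidence of a dependence on length. Without any one mouse the difference lay between -0.27 and -0.17 with an exact p of 0.00794 to 0.0317. Without PBS mice 1 and 4, a choice made after the values were seen, the difference was -0.12 (exact permutation p = 0.0952), and for the 334 genes with a coding part of at least 6000 bases it was -0.12 (exact permutation p = 0.0909). The deviation of Eppk1 minus this score was 0.29 ± 0.14 in PBS mice and -0.24 ± 0.14 in DT mice, a difference of -0.53 with no overlap of the groups.

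The plakins themselves also followed single mice. PBS mouse 4 had the highest level among the PBS mice for all 6 members and for Dsp. The same held for 23.2% of 13471 other genes, and for 64.1% of the 309 with a transcript of at least 10 kb. DT mouse 4 had the lowest level among the DT mice for Eppk1, Plec, Dst, Macf1 and Dsp, which held for 19.5% of the other genes and for 52.1% of those of at least 10 kb. For Ppl and Evpl the same DT mouse had the highest level, which held for 19.8% of the other genes and for 5.18% of those of at least 10 kb. The 4 large cytolinkers thus had PBS mouse 4 highest and DT mouse 4 lowest in their groups. Both held together for 7.25% of the other genes and for 40.1% of those of at least 10 kb. The 2 shorter envelope plakins had the other order in DT mouse 4. Without PBS mice 1 and 4, the log2 fold change of Eppk1 was -0.58, and Eppk1 was still called.

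**Figure D5:**
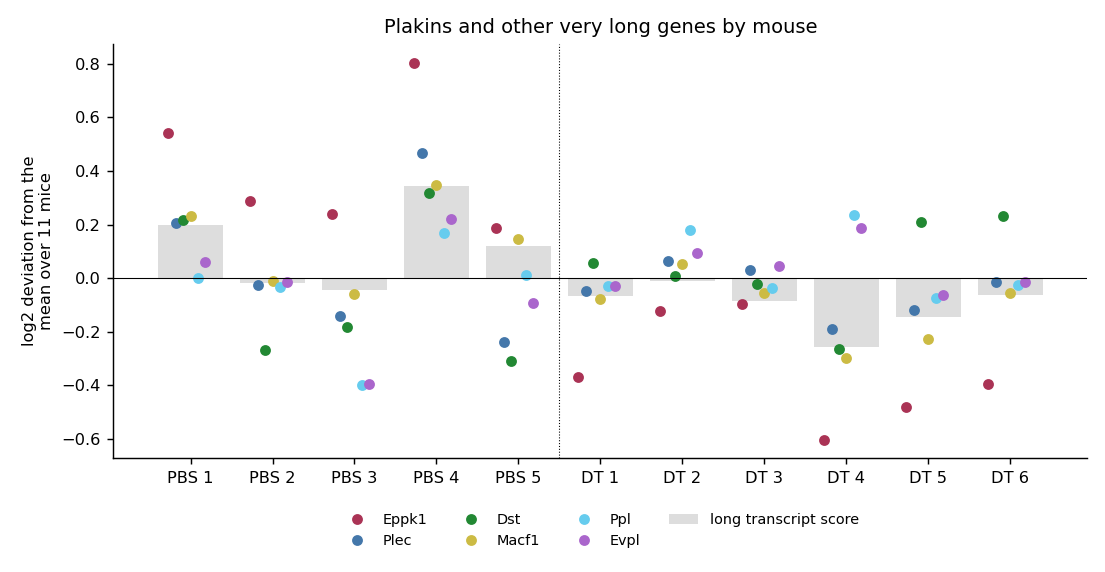
For each mouse, grey bars give the long transcript score and points the log2 deviation of each plakin from its own mean over the 11 mice. Plec, Dst and Macf1 lie near the bar in PBS mice 1 and 4 and DT mouse 4, but not in every mouse. In PBS mouse 5 the score is 0.12, while Plec is at -0.24 and Dst at -0.31. In DT mice 5 and 6 Dst is at 0.21 and 0.23, where the scores are -0.14 and -0.06. Eppk1 lies above the bar in all 5 PBS mice and below it in all 6 DT mice. In DT mouse 3 Eppk1 is nearly at the bar (Eppk1 minus score, -0.01), and in PBS mouse 5 this difference is 0.07.

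The junctions and filaments to which the plakins bind were described next, with limma's adjustment over all 19170 genes. Of 10 hemidesmosome genes, which include the laminin and integrin chains that hold basal cells to the basement membrane, 0 were called, 1 had an unadjusted p under 0.05, and the median log2 fold change was 0.04. Among them Lamb3 had 0.13 ± 0.05 (log2 fold change ± SE) and Itga6 0.11 ± 0.06. Of 15 desmosome genes 0 were called, with 1 at an unadjusted p under 0.05 and a median of 0.05. The desmosomal cadherins Dsg1b and Dsc1 had 0.18 ± 0.06, called only without PBS mice 1 and 4, and 0.19 ± 0.09, and the plakophilin Pkp2, near the lower limit of detection with a mean of 17.2 normalized counts in PBS mice, had -0.39 ± 0.23. Beside these counts, 1791 of the 13477 genes averaging 10 or more normalized counts, or 13.3%, had an unadjusted p under 0.05.

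Of 23 cornified envelope genes at this level or above 0 were called, with 3 at an unadjusted p under 0.05 and a median of 0.02. The protease inhibitor Csta1 had 0.30 ± 0.08 and was called in 2 of the 21 other settings, with array weights and without PBS mouse 5, and corneodesmosin (Cdsn) had 0.21 ± 0.07. Sprr2a2 had 4.53, 9.72, 58.3, 2.73 and 42.0 normalized counts in PBS mice 1 to 5 and 0.88 to 11.8 in DT mice, so that PBS mice 3 and 5 set the mean. Its log2 fold change was -1.45 ± 0.67, or -0.93 without PBS mouse 3, and it was called only without PBS mice 1 and 4, which are among the low ones. Among 21 keratins, the filaments that epiplakin binds, 0 were called, with 1 at an unadjusted p under 0.05 and a median of 0.05. The basal keratin Krt15 had 0.26 ± 0.08 and was called in 2 of the 21 other settings, both of which left out PBS mouse 4. Krt36 had 0.44 ± 0.29 and the suprabasal keratin Krt10 had 0.20 ± 0.14.

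Among 29 microtubule and actin partners of Macf1, Dst and Plec, 0 were called higher and 2 lower, with 3 at an unadjusted p under 0.05 and a median of -0.02. Among all genes averaging 10 or more normalized counts, 41 of 13477, or 0.304%, were called lower. Syne2, which encodes nesprin-2, a giant spectrin repeat protein of the nuclear envelope with a transcript of 21.7 kb, had 1971, 1692, 1582, 2061 and 2061 normalized counts in PBS mice 1 to 5 and 1118 to 1462 in DT mice with a median of 1415. The groups did not overlap, and the log2 fold change was -0.48 ± 0.09 (limma, adjusted p = 0.0318), or -0.29 after the length and GC correction (limma, adjusted p = 0.0567). It lost its call in 4 of the 21 other settings, among them those without PBS mouse 1 (limma, adjusted p = 0.116) and without DT mouse 5 (limma, adjusted p = 0.104). Phldb1, whose product anchors microtubules at the cell cortex beside the basement membrane, had 289, 309, 320, 294 and 378 normalized counts in PBS mice 1 to 5 and 191 to 287 in DT mice with a median of 224. Its log2 fold change was -0.48 ± 0.10 (limma, adjusted p = 0.0782), and the call was lost in 10 of the 21 other settings, with an adjusted p of up to 0.295. Leaving out PBS mouse 1, 2 or 3 or DT mouse 1, 3, 5 or 6 was enough, with adjusted p-values between 0.111 and 0.188 (limma). The intermediate filament gene Vim had -0.62 ± 0.21 and was called only without PBS mice 1 and 4.

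The very long coding genes behind the score numbered 61 at or above an average of 10 normalized counts, of which limma called 3 lower and 0 higher, with 35 at an unadjusted p under 0.05, 55 negative and 6 positive log2 fold changes and a median of -0.23. Over all genes at that level 0.304% were called lower, 13.3% had an unadjusted p under 0.05 and the median was 0.00. The called genes were Syne2, Fryl and Prkdc. Fryl, with a transcript of 11.3 kb, had 2050, 1878, 1818, 2377 and 1945 normalized counts in PBS mice and 1325 to 1707 in DT mice with a median of 1537, a log2 fold change of -0.39 ± 0.07 (limma, adjusted p = 0.043). Prkdc, the catalytic subunit of the DNA-dependent protein kinase, had 404, 307, 309, 412 and 360 in PBS mice and 255 to 281 in DT mice with a median of 266, a log2 fold change of -0.42 ± 0.08 (limma, adjusted p = 0.0551). Neither gene overlapped between the groups, and the call was lost in 5 of the 21 other settings for Fryl, with an adjusted p of up to 0.290, and in 9 for Prkdc, with an adjusted p of up to 0.237. Leaving out PBS mouse 1, DT mouse 5 or DT mouse 6 lost the call in both genes, with adjusted p-values of 0.112 to 0.127 in Fryl and 0.130 to 0.165 in Prkdc (limma). Leaving out DT mouse 2, 3 or 4 did so in Prkdc as well, with 0.107 to 0.119.

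The neighbours of Eppk1 and Plec on chromosome 15 were examined because both genes lie side by side. Of the 13 neighbours with values 0 were called, 1 had an unadjusted p under 0.05, and the log2 fold changes lay between -0.10 and 0.10 with a median of 0.03. The keratin-organizing Fam83h had 0.09 ± 0.04. Its groups did not overlap, but the highest PBS mouse (5600.5 normalized counts) and the lowest DT mouse (5601.5) nearly met. Of genes averaging 10 or more normalized counts, 1.23% were higher in DT mice without overlap. The ADP-ribosyltransferase Parp10 had -0.10 ± 0.07 and the splicing factor Puf60 0.07 ± 0.04. The other 10, which were Cyc1, Scrib, Gpaa1, Grina, Exosc4, Oplah, Maf1, Mapk15, Nrbp2 and Sharpin, lay between -0.07 for Gpaa1 and 0.10 for Cyc1. The polarity gene Scrib, at 5.60 kb the longest of these transcripts, had 0.07 ± 0.05.

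The genes whose levels over the 11 mice were most like those of Eppk1 were sought by the mean absolute difference of the log2 deviations from each gene's own mean. This measure includes the difference between the groups. The nearest of 13476 genes were Tmem147os at 0.156, Pou2f1 at 0.162, Card9 at 0.164, Kmt2d at 0.167 and Tedc1 at 0.171, against a median of 0.395. Card9 averaged only 17.8 normalized counts over the mice and Tmem147os 52.1, beside 112 for Tedc1, 591 for Pou2f1 and 2914 for Kmt2d. The likeness of the low genes is thus less certain. Pou2f1, which encodes the transcription factor Oct-1, and the histone methyltransferase gene Kmt2d have transcripts of 13.1 and 19.8 kb, whereas those of Tmem147os, Card9 and Tedc1 measure 1.28, 1.95 and 4.00 kb. Tmem147os is named as an opposite-strand transcript, and its reads are uncertain because the strand setting of the counting is not given in the sources used here. Of the other plakins Macf1 was the nearest, at 0.255 and rank 185, followed by Plec at 0.325 and rank 1569, and Dst, Evpl and Ppl were at 0.415, 0.415 and 0.420, beyond the median gene.

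Markers of other cells are given beside these values. None of the 9 marker lists held a called gene. Among the 9 genes of the Langerhans cell list all 9 had a negative log2 fold change, with a median of -0.44. Of these genes 4 had an unadjusted p under 0.05, beside 13.3% of all genes averaging 10 or more normalized counts. Their summed level was 2472 to 5782 normalized counts in PBS mice and 1775 to 3413 in DT mice, and the defining marker Cd207 averaged 23.9 and 18.4, low in both groups. The 10 keratinocyte markers had a median of 0.05. The summed levels of the lists for T cells (23.7 to 91.5 in PBS mice, 27.2 to 47.2 in DT mice), endothelium (56.7 to 95 and 45.3 to 119), muscle (39.8 to 82.9 and 33.4 to 93.4) and melanocytes or Merkel cells (20.1 to 32.1 and 22 to 36.5) were small beside those of keratinocytes and overlapped between the groups. Those of fibroblasts (1658 to 1886 and 1484 to 2050), neutrophils or monocytes (732 to 3434 and 680 to 3757) and Schwann cells or nerve (1005 to 1104 and 990 to 1468) overlapped too. Whether these cells have a part in the level of Eppk1 was not tested.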

How the data were processed

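Poly(A)-selected RNA of the gingival epithelium of 11 Langerin-DTR mice was sequenced with a stranded kit. There were 100 cycles per the labels and 75 in the study's reporting summary. The study's methods name male mice, whereas its reporting summary gives the findings for both sexes, in sex-matched groups. The values that the authors deposited are normalized counts, that is, read counts per gene divided by a DESeq2 size factor. The submitters' processing notes name cutadapt 2.10, TopHat2 2.1.1, HTSeq 2.01, DESeq2 1.36.0 and the build GRCm39, whereas the study's methods name GRCm38; 3333 identifiers of the table are absent from GENCODE M21, so no coordinates are given. Genes with under 10 summed reads carry no value (36244 genes). At least 99.98% of values in each mouse were whole multiples of the value of 1 read (tolerance 0.002 normalized counts), from which depth was recovered. The labels give no culture, cage or litter, so p-values measure the spread between these mice.

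All 11 mice entered 1 fit of log2(normalized count + 1) with limma 3.58.1 in R 4.3.3 (trend, no covariate), and p-values were adjusted by Benjamini-Hochberg over all 19170 genes (threshold 0.1). The scripts were tested on simulated data. Single scores were compared by two-sided exact permutation over all splits of the mice. Transcript lengths, GC content and sequences came from the GENCODE M21 transcripts, in which 99.8% of genes were matched (19117 by identifier and 16, Eppk1 among them, by symbol). The members, the gene lists and the alternatives were chosen with earlier results of these data known. The text names the members, Dsp, every neighbour, the 3 genes of each list with the smallest p, each called gene of a list, and the 5 genes most like Eppk1. A hemidesmosome gene that this rule names is not reported here. The main fit did not pair the mice by replicate number, and whether the numbers pair them was not settled.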

Additional observations from a re-analysis of the deposited data

Results flagged for a closer look

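In 98 groups of mice, over the levels, ratios and scores given above, 3 mice stood apart from the rest of their group by the ratio of the gap to the nearest mouse to the range of the group, in a check that chance passes in about 1 in 20 groups. The level of Dsp in DT mouse 4 was 178309 normalized counts, where the other 5 DT mice had 203515 to 215311. Krt36 had 32.5 normalized counts in PBS mouse 5, where the other 4 PBS mice had 11.8 to 15.8. Tedc1 had 81.4 normalized counts in DT mouse 5, where the other 5 DT mice had 95.5 to 101. None of the 6 members and none of the ratios of Eppk1 was marked in this way.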

How the results depend on the processing

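Eppk1 kept its direction and its call in all 21 other settings, and no other member was called in any. The correction for length and GC content moved Macf1 to -0.037, and to -0.042 with a replicate block. The log2 fold change without any one mouse lay between -0.81 and -0.66 for Eppk1, between -0.17 and 0.00 for Plec, 0.01 and 0.17 for Dst, -0.29 and -0.19 for Macf1, 0.00 and 0.15 for Ppl, and -0.01 and 0.15 for Evpl. The long transcript score differed by -0.12 both without PBS mice 1 and 4 and for coding parts of at least 6000 bases, alternatives chosen after seeing the data, and was not past 0.05 in either. Genes higher and lower after DT numbered 60 and 47, and 110 and 79 with array weights, 140 and 44 with the length and GC correction, and 162 and 72 without PBS mice 1 and 4. Without any one mouse the counts ran from 19 to 155 higher and from 8 to 104 lower, the lowest without DT mouse 5 and the highest without PBS mouse 5. They were 21 and 8 without PBS mouse 1, 24 and 16 without PBS mouse 2, 107 and 63 without PBS mouse 4, 39 and 22 without DT mouse 1, 32 and 20 without DT mouse 3, 27 and 23 without DT mouse 4, and 21 and 9 without DT mouse 6. With the replicate number as a block 24 genes were higher and 11 lower, and 32 and 7 with the block and the length and GC correction. DT mouse 6 has no partner in the block and adds nothing to the difference there. The block follows the numbers in the sample titles, in which PBS mouse 5 is a library named with the number 6. Deviations of mice that share a number correlated across genes at 0.09, 0.17, -0.23, -0.21 and 0.32. Mice with different numbers were not compared in this way, so these values cannot settle whether the number pairs the mice. The cause of these changes was not tested. The planned count tests with edgeR or DESeq2 were not run, since the deposited values were not taken as counts and the recovered reads served for depth alone, and scores by protein length because no protein table was used here.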
